A study of Homo sapiens with 14 samples.

Results

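GULP1 and 8 further genes of the machinery by which cells engulf dying cells were followed in 14 RNA-seq libraries of bladder cancer xenografts. GULP1 was chosen by its fall in tumours of FASN knockdown cells kept in regular medium. LRP1, MEGF10, ELMO1, ELMO2, DOCK1, MERTK, AXL and GAS6 were chosen by their known role in the same process, with earlier results of these libraries known. They are 9 of the 62749 human genes with summed counts, and 8 of them, all but MEGF10, were among the 22560 genes abundant enough to be tested.

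Engulfment of a dying cell begins when phosphatidylserine on its surface is bound, either directly by a receptor or through a bridging protein such as GAS6 or protein S, which link it to the receptor tyrosine kinases TYRO3, AXL and MERTK. A second route runs through LRP1 and MEGF10, whose tails bind the adaptor protein GULP1, and signals to the cytoskeleton converge on ELMO and DOCK1, which together activate the GTPase RAC1. Tumour cells use several of these proteins for other ends: AXL is a growth and migration receptor, LRP1 an endocytic receptor, and GULP1 has been tied in urothelial carcinoma to KEAP1, the repressor of the antioxidant factor NRF2.

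The xenografts came from UMUC3, a human urothelial carcinoma line, engrafted in mice. Control cells carried a construct named control sh, and in the other cells FASN, the gene of fatty acid synthase, was knocked down by a method not stated in the labels. Both kinds were kept either in regular medium or pre-exposed to 10% CSM, a cigarette smoke medium, before engraftment. This gave control tumours (n = 3), FASN knockdown tumours (n = 3), control tumours after CSM (n = 4) and FASN knockdown tumours after CSM (n = 4). Mouse strain and age were not stated in the labels. RNA came from frozen xenograft tissue. Whether each library stands for its own mouse is not stated, so each p-value measures the spread between these libraries, which may be technical.

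The libraries held 15810181 to 45209387 counts, and the share on the 7SL RNAs ran from 2.64% to 25.6%. FASN knockdown replicate 2 had both the lowest total and the highest 7SL share. FASN itself stood at 99.9 to 132 CPM (read counts scaled to a common library size after TMM adjustment) in the knockdown libraries against 379 to 571 CPM in control libraries. Libraries labelled FASN knockdown after CSM had 220, 166, 301 and 479 CPM, and their controls 366 to 479 CPM. Replicate 4 of that group therefore had 111% of the control mean and went against its label, while replicates 1, 2 and 3 had 50.9%, 38.5% and 69.8%. In edgeR's quasi-likelihood test FASN had a log2 fold change of -1.94 (SE 0.33, adjusted p = 0.0245) in regular medium. After CSM the value was -0.57 (SE 0.28, edgeR adjusted p = 0.288). The groups then overlapped, and FASN was not past the threshold for calling a gene. Every direction given below for the libraries labelled FASN knockdown after CSM includes replicate 4 unless stated otherwise. The tables list human transcripts only. Of the human marker genes, VIM, an intermediate filament of mesenchymal cells, stood at 1189 to 2772 CPM and KRT8, a keratin of simple epithelia, at 69.6 to 133.6 CPM. UPK1A, UPK2 and UPK3A, which encode uroplakins of the normal urothelium, and KRT19, KRT20 and EPCAM were under 1 CPM in every library. The myeloid markers CD14, CSF1R, CD163, MRC1, AIF1, TYROBP, FCER1G, C1QA, C1QB and C1QC (10 of 15 listed) were also under 1 CPM in every library. The summed level of the 15 myeloid markers was 82.5 to 130.2 CPM in control libraries and 98.7 to 122.5 CPM in FASN knockdown libraries. After CSM it was 88.7 to 117.0 CPM in control and 55.6 to 127.5 CPM in FASN knockdown libraries, and CD68 alone, the most abundant of these genes by median, stood at 35.5 to 102.6 CPM over all libraries. Of the 7 tested myeloid markers, 6 had log2 fold changes above 0 in regular medium and 1, CD68, below. After CSM 3 were above 0 and 4 below, and none was past the same threshold in either medium. Of 8 endothelial markers 6 were under 1 CPM in every library, as were 6 of the 15 epithelial and urothelial and 1 of the 8 mesenchymal markers. The mesenchymal sums overlapped between control and knockdown libraries in both media.

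GULP1, the adaptor, was nearly without reads in tumours labelled FASN knockdown. It is encoded on the forward strand of chromosome 2 (chr2:188291669-188595931; coordinates here and below are GRCh38, GENCODE release 29). In regular medium the control libraries held 227, 273 and 139 GULP1 counts, or 5.13, 7.69 and 3.66 CPM. The FASN knockdown libraries held 2, 0 and 0 counts, of which the 2 counts equal 0.0701 CPM. The groups did not overlap. This contrast chose the gene and is a description: pooled over libraries, the ratio of control to knockdown CPM was 202.7, with an exact 95% counting interval of 55.9 to 1677 that rests on 639 counts against 2. In the libraries at 0, a count of 3, the upper limit that a count of 0 allows, would be 0.254 CPM in replicate 2 and 0.0873 CPM in replicate 3. Counting intervals cover counting error only.

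The same fall was measured in the 8 libraries after CSM, which that choice did not use. FASN itself was not past the threshold between these groups (edgeR adjusted p = 0.288). Control libraries held 168, 124, 461 and 264 GULP1 counts (4.86, 3.57, 13.1 and 6.35 CPM). The libraries labelled FASN knockdown held 17, 11, 4 and 22 counts (0.503, 0.376, 0.112 and 0.447 CPM). No library of either group lay within the range of the other, and replicate 4, with its high FASN, had as little GULP1 as the rest of its group. The log2 fold change was -4.26 (SE 0.58), with an adjusted p of 0.00217 (edgeR's quasi-likelihood test, Benjamini-Hochberg over all tested genes). An exact two-sided permutation test of CPM over the 4 against 4 libraries gave p = 0.0286, the smallest that this design allows. Without replicate 4 the log2 fold change was -4.37 and the adjusted p in the same edgeR test was 0.0121. Pooled, the ratio of control to knockdown CPM after CSM was 19.1 (95% counting interval 14.5 to 25.6, from 1017 and 54 counts). In these bulk libraries, fewer cells with GULP1 RNA and less GULP1 RNA per cell cannot be told apart. By their labels the control and FASN knockdown cells were of the same kinds in both media. An effect of FASN knockdown and any other lasting difference between these kinds of cells therefore cannot be told apart here.

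Among the knockdown libraries more GULP1 reads were counted after CSM than in regular medium. The 4 libraries after CSM held 54 counts in all against 2 in the 3 libraries from regular medium, a pooled CPM ratio of 13.6 with a counting interval of 3.60 to 115.5. The lowest library after CSM, at 0.112 CPM from 4 counts, lies below the 0.254 CPM that the 0 of replicate 2 in regular medium allows, so a separation of the groups is not resolved at this depth. In control tumours the groups overlapped, and the pooled ratio of CSM to regular medium was 1.28 (counting interval 1.16 to 1.42). Its direction rests on control replicate 3 after CSM, with 461 counts, since without that library the ratio was 0.924 (0.823 to 1.04). The fitted log2 differences were 0.34 (SE 0.54) in control cells and 3.59 (SE 0.93) in knockdown cells, and both are descriptions because they use the libraries that chose the gene.

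**Figure D1:**
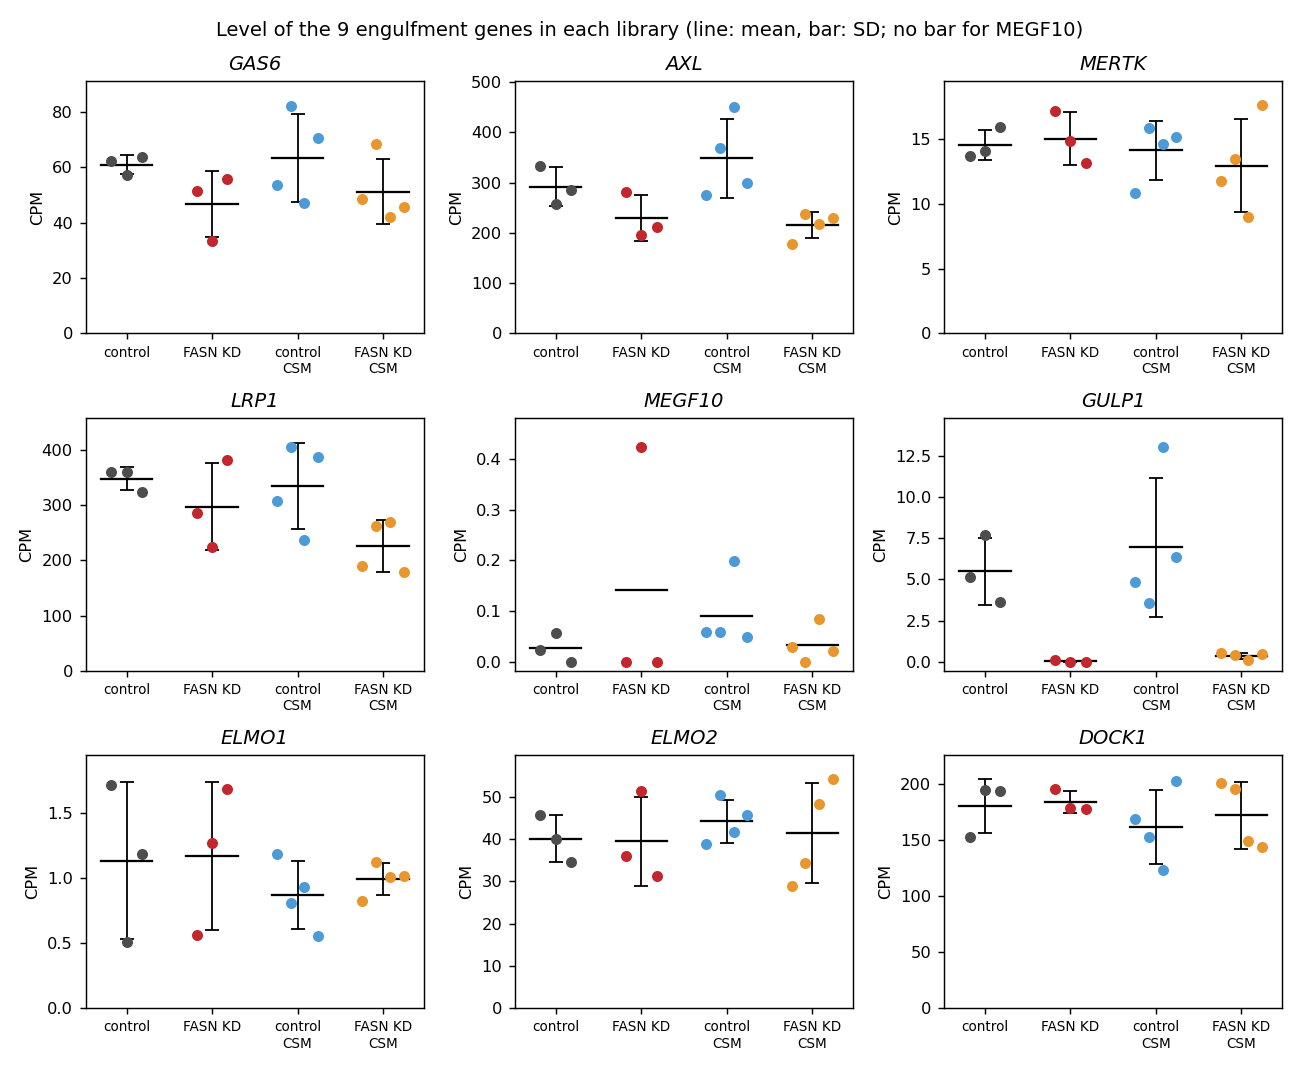
Level in CPM (linear axis) of each of the 9 genes in each library, by group, with the group mean as a line and 1 SD as a bar. GULP1 lies at 3.57 CPM or above in every control library and at 0.503 CPM or below in every library labelled FASN knockdown, while the groups overlap in most other panels.

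Most of the few GULP1 reads in tumours labelled FASN knockdown after CSM lay on 1 short transcript model that held a small part of the reads in control tumours. The tables list 20 GULP1 models, of which 17 had reads. One of them, GULP1-209, is a short protein-coding model that ends inside the gene, with a coding length of 501 bases against 912 in the full-length model GULP1-201.

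GULP1-209 took 1.67%, 6.96% and 11.1% of the GULP1 reads in the control libraries. After CSM it took 3.26%, 15.5%, 6.20% and 4.33% in control libraries. In tumours labelled FASN knockdown after CSM it took 79.8%, 36.7%, 100% and 86.5%, or 40.8 of the 54 estimated reads. The shares of the knockdown libraries after CSM were all above those of both control groups. The estimated reads on GULP1-209 were not, and overlapped. They were 3.79, 19.0 and 15.4 in control libraries and 5.48, 19.2, 28.6 and 11.4 in control libraries after CSM. In knockdown libraries after CSM they were 13.6, 4.06, 4.04 and 19.2, so the high shares went with few reads on the other models. Models that end in the last 10 kb of the gene held 78.2% of the reads in control tumours, 76.9% in control tumours after CSM and 18.4% in knockdown tumours after CSM. Salmon divides reads among models by estimate, and GULP1-209 shares up to 536 of the 942 bases of its last exon with other models. GULP1-206 and GULP1-210 differ in length between the deposited tables and GENCODE release 29. With 4 to 22 reads per library these shares are descriptions, and with 2 reads the knockdown libraries of regular medium allow no such comparison. Of the genes that overlap GULP1, the opposite-strand LINC01090 held 1 count over all libraries and MIR561 none.

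**Figure D2:**
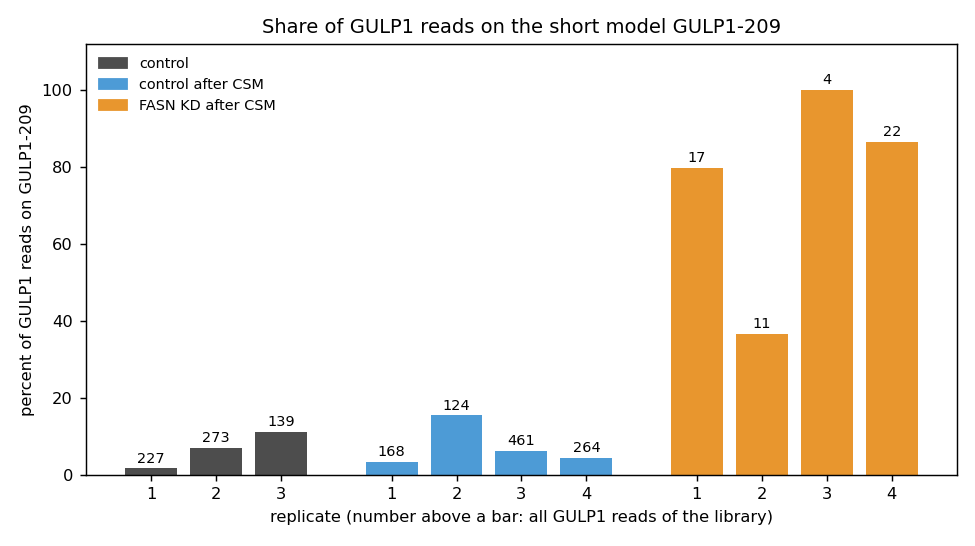
Percent of the GULP1 reads of each library that Salmon placed on GULP1-209, with the number of all GULP1 reads above each bar, for the 3 groups that held more than 2 reads. The bars of FASN knockdown after CSM, at 36.7% to 100%, stand on 4 to 22 reads each, and those of the control groups, at 1.67% to 15.5%, on 124 to 461.

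After CSM, GULP1 was the one gene called among the 8 tested members, at an adjusted p below 0.05 in edgeR's quasi-likelihood test, against 1.17% of all tested genes. In regular medium, the contrast that chose GULP1 and in which it has no test, 0.204% of all tested genes were called. The other 7 tested members were not called in either medium, and their smallest adjusted p was 0.742 in regular medium and 0.101 after CSM in this edgeR test. Of these 7, none had an unadjusted p under 0.05 in regular medium and 2, AXL and LRP1, had one after CSM. The groups did not overlap for 2 of the 8 tested members in each contrast, GULP1 (by its choice) and GAS6 in regular medium and GULP1 and AXL after CSM, against 11.8% and 16.2% of all tested genes. The median log2 fold change of the 8 was -0.13 in regular medium and -0.22 after CSM, against 0.016 and 0.0083 over all tested genes. After CSM the sign of the median depended on the scale: on log2(TPM + 1), TPM being the deposited length-scaled abundance, the median of all tested genes was 0.39 and that of the members 0.31.

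**Figure D3:**
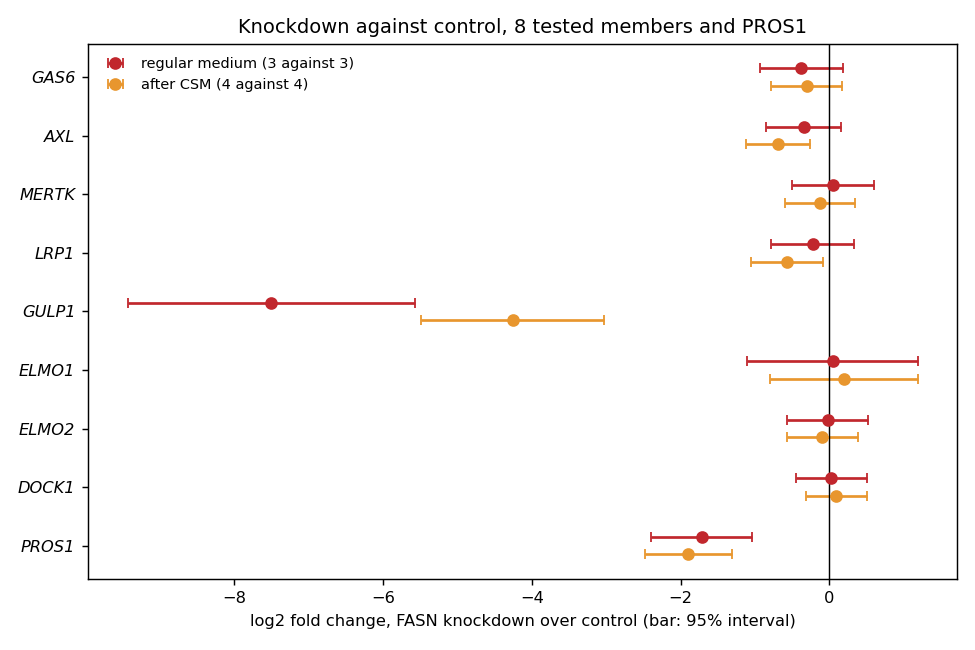
Log2 fold change of FASN knockdown over control with its 95% interval for the 8 tested members and PROS1, in regular medium and after CSM (linear axis of log2 values). GULP1 lies at -7.50 and -4.26, the former being the contrast by which it was chosen, and the interval of every other member includes 0 in regular medium, while after CSM those of AXL and LRP1 do not.

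GAS6 (chr13:113820549-113864067), the bridging ligand of TYRO3, AXL and MERTK, was a little lower in knockdown tumours in regular medium. It stood at 62.1, 57.1 and 63.7 CPM in control and 51.5, 33.4 and 55.8 CPM in knockdown libraries. The 2 groups did not overlap, but the difference (log2 fold change -0.38, SE 0.26) was not past the threshold (edgeR adjusted p = 0.745). The lowest value belonged to knockdown replicate 2, the library with the fewest counts. After CSM the levels were 53.5, 82.0, 47.0 and 70.7 CPM in control and 48.4, 68.5, 42.1 and 45.8 CPM in knockdown libraries, which overlapped (log2 fold change -0.31, SE 0.22, edgeR adjusted p = 0.466). On log2(TPM + 1) the difference after CSM was 0.37, of the opposite sign. GAS6-AS1, on the opposite strand of the same locus, reached 41.6 CPM, and whether the counting used strand is not given in the sources used here, so reads of the pair may not be separable.

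PROS1 (chr3:93873033-93980003), which encodes protein S, the other ligand of the same receptors, fell in both media. It is the called gene of a list of 8 bridging and eat-me ligands. In regular medium it stood at 12.1, 20.9 and 15.2 CPM in control and 6.06, 5.76 and 2.91 CPM in knockdown libraries. In libraries after CSM its level was 15.6, 14.5, 11.4 and 15.2 CPM in control and 3.43, 3.42, 4.91 and 3.48 CPM in knockdown libraries. A pseudogene, PROS2P, has its own entry in the tables, so reads shared with it may be split. Every knockdown library lay below every control library of its medium, replicate 4 after CSM included. The log2 fold change was -1.72 (SE 0.32, edgeR adjusted p = 0.0403) in regular medium and -1.89 (SE 0.28, edgeR adjusted p = 0.00382) after CSM. The former was not stable: it stayed called without control replicate 1 (edgeR adjusted p = 0.0458) and lost without any of the other 5 libraries (0.0524 to 0.210). It was also lost in 3 of 6 other settings, with the replicate number as a block (edgeR adjusted p = 0.154), with only the groups of the contrast (0.308) and with limma on log2(TPM + 1) (0.994). After CSM all 8 such fits kept it, with adjusted p of 0.00619 to 0.0183 in the edgeR test, but on log2(TPM + 1) the value was -0.80 and limma's adjusted p 0.230.

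AXL (chr19:41219203-41261766), the most abundant member per transcript length, stood at 334, 256 and 285 CPM in control and 281, 195 and 211 CPM in knockdown libraries in regular medium. These groups overlapped (log2 fold change -0.35, SE 0.24, edgeR adjusted p = 0.742). After CSM it stood at 276, 368, 451 and 298 CPM in control and 178, 238, 218 and 229 CPM in knockdown libraries, and no library of one group reached the range of the other. This gave a log2 fold change of -0.69 (SE 0.21) with an edgeR adjusted p of 0.101. DESeq2 called it, with a log2 fold change of -0.67 and an adjusted p of 0.0238. On the TPM scale the separation was absent: AXL was at 70.5, 89.3, 47.8 and 71.5 TPM in control and 76.1, 50.9, 77.1 and 78.1 TPM in knockdown libraries after CSM.

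MERTK (chr2:111898479-112029561), the receptor best known from macrophages and the retinal pigment epithelium, was present at a low and even level. In regular medium it stood at 13.7, 14.1 and 15.9 CPM in control and 17.2, 14.8 and 13.1 CPM in knockdown libraries. The libraries after CSM had 10.8, 15.9, 14.6 and 15.2 CPM in control and 11.8, 13.5, 8.98 and 17.6 CPM in knockdown libraries. The groups overlapped in both media, with log2 fold changes of 0.047 (95% interval -0.50 to 0.59) and -0.12 (-0.59 to 0.35). A model annotated for nonsense-mediated decay, MERTK-203, held 13.7% to 86.3% of its reads.

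LRP1 (chr12:57128493-57213351), the endocytic receptor whose tail GULP1 binds, was abundant in every library. It stood at 360, 360 and 324 CPM in control and 287, 224 and 382 CPM in knockdown libraries in regular medium (log2 fold change -0.23, SE 0.26, edgeR adjusted p = 0.896). The values after CSM were 309, 406, 237 and 387 CPM in control and 191, 263, 270 and 180 CPM in knockdown libraries. These groups overlapped, and the log2 fold change of -0.57 (SE 0.23) was not past the threshold (edgeR adjusted p = 0.206). On log2(TPM + 1) it was 0.26, of the opposite sign. The full-length model LRP1-201 held 93.5% to 99.1% of its reads. STAT6, which overlaps LRP1 on the opposite strand, stood at 152 to 259 CPM.

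MEGF10 (chr5:127290831-127465737), the other receptor that signals through GULP1, was close to absent. Control libraries held 1, 2 and 0 of its counts and knockdown libraries 0, 5 and 0. After CSM these were 2, 2, 7 and 2 in control and 1, 0, 3 and 1 in knockdown libraries. Those 5 counts came from the shallowest library, and no comparison was made at this depth.

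The activators of RAC1 showed no difference past the threshold. ELMO1 (chr7:36854361-37449249) was low, at 0.507 to 1.72 CPM in all libraries, and 68.9% to 100% of its reads lay on ELMO1-213, a model annotated as a retained intron. In the 7 libraries labelled FASN knockdown no ELMO1 read was placed on a protein-coding model. In the 7 control libraries 9.83% to 31.1% of ELMO1 reads were, with 18 to 76 reads per library, against 15 to 58 in the 7 labelled FASN knockdown. The log2 fold changes of ELMO1 were 0.042 (95% interval -1.11 to 1.19) and 0.19 (-0.80 to 1.19). ELMO2 (chr20:46366049-46432985) stood at 45.8, 40.2 and 34.7 CPM in control and 36.0, 51.5 and 31.2 CPM in knockdown libraries in regular medium. After CSM ELMO2 stood at 38.9, 50.6, 41.8 and 45.9 CPM in control and 28.8, 34.4, 48.4 and 54.3 CPM in knockdown libraries, and its log2 fold changes were -0.025 (95% interval -0.57 to 0.52) and -0.095 (-0.57 to 0.38). DOCK1 (chr10:126905409-127452517), the exchange factor that ELMO proteins hold, stood at 152, 194 and 194 CPM in control and 195, 178 and 177 CPM in knockdown libraries. After CSM it stood at 168, 152, 122 and 202 CPM in control and 200, 195, 148 and 143 CPM in knockdown libraries, with log2 fold changes of 0.026 (95% interval -0.45 to 0.50) and 0.090 (-0.32 to 0.50). All these groups overlapped. One model, DOCK1-206, took 32.9% to 36.9% of the DOCK1 reads in control and 18.6% to 29.9% in knockdown libraries in regular medium, which did not overlap. After CSM its shares of 26.4% to 32.5% and 23.8% to 28.9% did. The ELMO1 and DOCK1 models were named after their values were seen. How many of all transcript models have shares without overlap is not given here, so these shares are descriptions.

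Per transcript length the control tumours from regular medium had, in TPM as mean ± SD (n = 3), 61.0 ± 7.79 of AXL, 19.0 ± 1.196 of DOCK1, 18.3 ± 1.69 of LRP1, 17.6 ± 1.36 of GAS6, 13.9 ± 1.90 of ELMO2 and 3.13 ± 0.429 of MERTK. GULP1 followed at 2.37 ± 0.350 TPM, above ELMO1 at 0.415 ± 0.313 TPM and MEGF10 at 0.00235 TPM. DOCK1, LRP1 and GAS6 overlapped their neighbours in this order, and the others did not.

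Exposure to CSM gave no called member. Of the 7 tested members other than GULP1, 0 were called between media in control cells or in knockdown cells, and 0 for the interaction of knockdown and CSM. Of all tested genes 0% were called by edgeR's quasi-likelihood test in each of these 3 contrasts. At an unadjusted p under 0.05, 316, 1504 and 1178 of all genes passed and none of the 7 members, and DESeq2 called 6, 52 and 7 genes, none of them a member. Between media, 0 of the 8 tested members in control cells had groups that did not overlap, against 4.07% of all tested genes. In knockdown cells 0 of the 7 members other than GULP1 did, against 5.91% of all tested genes. For the 7 members the log2 differences between media ran from -0.39 to 0.26 in control cells and from -0.40 to 0.12 in knockdown cells.

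The remaining genes of the pathway were read from 6 lists chosen by function, with earlier results known. Of the bridging and eat-me ligands, 7 of 8 were tested and PROS1 alone was called, as a fall, in each medium. None was called among 6 of 6 tested genes of phosphatidylserine exposure, 13 of 16 other engulfment receptors, 12 of 12 genes of RAC signalling, 9 of 9 GULP1 partners and trafficking genes, or 10 of 10 genes of phagosome maturation in either medium. The smallest edgeR adjusted p in these 5 lists was 0.0992, for ITGB5, an integrin subunit of the phosphatidylserine route, at a log2 fold change of -0.64 (SE 0.19) after CSM. RAC1 itself had -0.69 (SE 0.21, edgeR adjusted p = 0.114) and CLTC, the clathrin heavy chain, -0.87 (SE 0.30, edgeR adjusted p = 0.150) after CSM. The others with the smallest p in their lists after CSM were ANO6, a scramblase that exposes phosphatidylserine (-0.63, SE 0.26), MEGF11, a relative of MEGF10 (-1.75, SE 0.66), ARHGEF16, an ELMO-binding exchange factor (-1.49, SE 0.47), and LAMP1, of the lysosome membrane (-0.51, SE 0.18). Their edgeR adjusted p ran from 0.120 to 0.214. After CSM the medians of the lists of RAC signalling (-0.37), GULP1 partners (-0.32) and phagosome maturation (-0.36) were below that of all genes (0.0083). So were those of the ligands (-0.47) and phosphatidylserine exposure (-0.20), while that of other engulfment receptors was 0.10 (8 of 13 above 0). In phagosome maturation 9 of 10 genes were below 0 and 1, RUBCN, was above (0.43, SE 0.19, edgeR adjusted p = 0.240). In regular medium the GULP1 partners had a median of 0.14, with 7 of 9 above 0. On log2(TPM + 1) the 3 medians named first were 0.36, 0.27 and 0.40 after CSM, against 0.39 over all genes. The 4 don't-eat-me signals, CD47 among them, were all tested and none was called. Their median was 0.43 in regular medium and -0.25 after CSM. TYRO3, the third receptor of GAS6 and PROS1, stood at 22.5 to 45.4 CPM over all libraries, and ADGRB1, a receptor for phosphatidylserine that binds ELMO, at 127.2 to 412.5 CPM.

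Genes of the KEAP1-NRF2 axis were read because KEAP1 has been described as a GULP1 partner. None of the 12 was called. All 12 log2 fold changes were below 0 in both media, with medians of -0.29 and -0.43 against 0.016 and 0.0083 over all tested genes. With DESeq2 11 of 12 were below 0 in regular medium, and on log2(TPM + 1) after CSM 2 of 12 were, at a median of 0.31 against 0.39 over all genes. In regular medium NFE2L2, the gene of NRF2, had -0.67 (SE 0.19, edgeR adjusted p = 0.233). SLC7A11, the cystine transporter and an NRF2 target, had -1.99 (SE 0.44, edgeR adjusted p = 0.0920) in regular medium and -1.44 (SE 0.37, edgeR adjusted p = 0.0711) after CSM. HMOX1, the heme oxygenase, had -2.01 (SE 0.61, edgeR adjusted p = 0.106) after CSM.

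**Figure D4:**
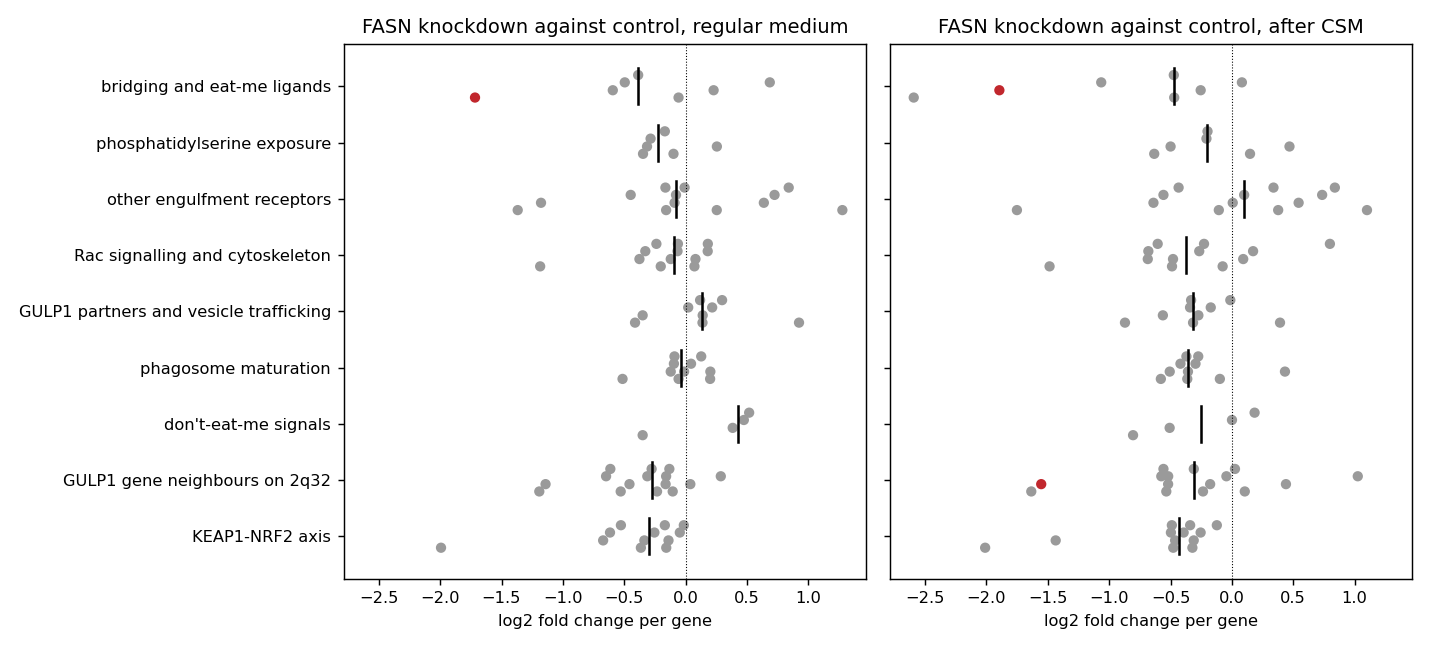
Log2 fold change of FASN knockdown over control for each tested gene of the pathway lists, the neighbours of GULP1 and the KEAP1-NRF2 axis (linear axis of log2 values), in both media; a black line marks each list's median and red marks an edgeR adjusted p below 0.05. PROS1 is the red point in both panels, at -1.72 and -1.89, and FAM171B the other red point after CSM, at -1.55.

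Of 19 genes next to GULP1 on chromosome 2, up to 1.81 Mb away, 15 were tested. FAM171B (chr2:186693971-186765965), 1.53 Mb before GULP1, fell after CSM, and no other neighbour was called in either medium. It stood at 15.5, 17.0 and 15.1 CPM in control and 7.08, 7.88 and 6.67 CPM in knockdown libraries. After CSM it stood at 11.6, 14.6, 18.5 and 20.2 CPM in control and 6.09, 8.34, 4.74 and 2.95 CPM in knockdown libraries. Neither pair of groups overlapped, and the log2 fold changes were -1.14 (SE 0.33, edgeR adjusted p = 0.255) and -1.55 (SE 0.29, edgeR adjusted p = 0.0173). The groups did not overlap for 11.8% of all tested genes in regular medium and 16.2% after CSM. The interaction of knockdown and CSM for FAM171B was -0.41 (SE 0.43, edgeR adjusted p = 0.953). The fall after CSM was not called without control replicate 4 (edgeR adjusted p = 0.0528) or without knockdown replicate 3 (0.0627) after CSM. It was also lost in 2 of 6 other settings, with the replicate number as a block (edgeR adjusted p = 0.0673) and with limma on log2(TPM + 1) (0.270). Over the 15 neighbours the median was -0.28 in regular medium, with 13 below 0, and -0.31 after CSM, with 11 below 0, against 0.016 and 0.0083 for all tested genes. Among those above 0 after CSM, ANKAR had 1.03 (SE 0.29, edgeR adjusted p = 0.0928), and its groups did not overlap. On log2(TPM + 1) after CSM 4 of 15 were below 0, at a median of 0.24 against 0.39 over all tested genes. The nearest tested genes were COL3A1 at 0.378 Mb, which did not exceed 0.781 CPM, and COL5A2 at 0.436 Mb, at 0.227 to 1.63 CPM, so the region close to GULP1 is thinly covered.

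**Figure D5:**
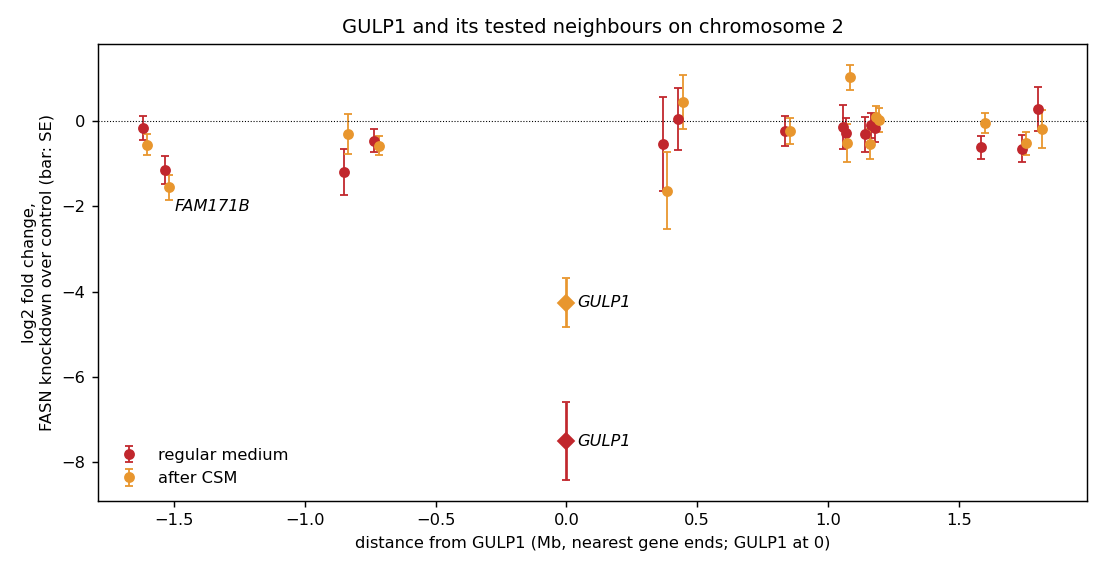
Log2 fold change of FASN knockdown over control, with its SE, for GULP1 (diamonds) and its 15 tested neighbours (circles) against the distance in Mb between the nearer ends of the gene and GULP1, in regular medium and after CSM. GULP1 lies at -7.50 and -4.26, and the lowest neighbour value is -1.64, of COL3A1 after CSM.

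Across the 14 libraries, the protein-coding genes whose level was most like that of GULP1 were LPAR1 (Pearson r = 0.968 of log2(CPM + 1)), SPANXB1 (0.965), EYA4 (0.959), TRPC4 (0.959) and AJAP1 (0.958), of 11859 genes with a mean of at least 2 CPM. LPAR1, a receptor for lysophosphatidic acid, ran from 10.5 to 27.8 CPM in control libraries of both media and from 0 to 0.666 CPM in libraries labelled FASN knockdown. TRPC4, a cation channel, ran from 5.07 to 16.1 CPM and from 0 to 0.177 CPM. SPANXB1 belongs to a family of near-identical copies, so its counts are uncertain. With log2(CPM + 0.1), 3 of the 5 were again among the first 5, and with Spearman's correlation 2 were. Among the other members AXL had the highest correlation with GULP1 (r = 0.776, place 284), and PROS1 stood at 0.870 (place 54). The libraries share their 4 groups, so any gene with the same group difference scores high, and these correlations are descriptions.

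Summed levels of human marker genes differed between some of the groups compared for GULP1. The 10 fibroblast markers summed to 37.2 to 76.8 CPM in control and 8.00 to 15.4 CPM in knockdown libraries in regular medium, which did not overlap. After CSM they summed to 14.7 to 81.9 CPM and 8.78 to 15.8 CPM, which did. POSTN, a matrix protein, made up much of the control sums in regular medium, at 13.4, 18.3 and 49.2 CPM. Of the 10, 6 (COL1A2, COL3A1, DCN, LUM, PDGFRA and FAP) were under 1 CPM in every library.

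Single fibroblast markers went both ways. In regular medium 5 of 7 tested markers had log2 fold changes below 0 and 2 above, DCN (0.47, SE 1.27) and PDGFRA (0.27, SE 1.06), and none was called (smallest edgeR adjusted p = 0.149). After CSM 4 of 7 were below 0 and 3 above, COL1A1 (0.84, SE 0.39), DCN (1.14, SE 1.09) and PDGFRA (0.18, SE 0.91). Those called after CSM were POSTN, at -5.08 (SE 1.12), and THY1, a surface glycoprotein, at -1.64 (SE 0.36), with edgeR adjusted p of 0.0420 and 0.0409. With 1 library left out, POSTN stayed called without control replicate 1 or 3 after CSM and THY1 without control replicate 1 after CSM, and both were lost in the remaining fits (edgeR adjusted p = 0.0539 to 0.120). POSTN was also lost in 3 of 6 other settings, with the replicate number as a block (edgeR adjusted p = 0.136), with only the groups of the contrast (0.0548) and with limma on log2(TPM + 1) (0.189). THY1 was lost in 2 of them, with the block (edgeR adjusted p = 0.129) and with limma on log2(TPM + 1) (0.234).

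The 15 epithelial and urothelial markers summed to 292.0 to 349.4 CPM in control and 184.7 to 213.8 CPM in knockdown libraries after CSM, which did not overlap. In regular medium their sums of 242.5 to 294.5 CPM and 202.3 to 308.4 CPM did. The 8 endothelial markers summed to 18.6 to 22.4 CPM in control and 10.8 to 16.4 CPM in knockdown libraries in regular medium, which did not overlap. After CSM they summed to 9.25 to 36.2 CPM and 12.8 to 18.9 CPM, which did. TIE1, at 6.62 to 33.5 CPM over all libraries, was the most abundant of the 8 by median. Of the 5 tested endothelial markers, 4 had log2 fold changes above 0 in regular medium and 1, TIE1, below (-0.85, SE 0.43). After CSM 1 was above 0 and 4 were below. No marker of these 2 lists was called in either medium. The part of these markers in the GULP1 difference was not tested.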

How the data were processed

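The authors deposited 1 Salmon table per library. Per the file headers it gives an estimated count (NumReads, unnormalised) and a TPM for each of 252048 transcripts. The submitters' processing notes name FastQC, cutadapt, Salmon and GRCh38. Versions, settings, strandedness and annotation release were not given in the sources used here. Expected counts were summed per gene ID and rounded, and TPM were summed. edgeR 4.0.16 (R 4.3.3) was run on all 14 libraries with 1 coefficient per group, TMM factors and filterByExpr (minimum count 10, minimum total 15), which kept 22560 genes, with the quasi-likelihood test and Benjamini-Hochberg adjustment over all of them. Genes were called at an adjusted p below 0.05. The fit was tested on simulated data with smaller fold changes than that of GULP1, so this check does not cover GULP1. Single values were tested with an exact permutation test in scipy 1.17.1.

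The members and gene lists were chosen with earlier results of these data known. GULP1 has no test in contrasts that use the regular-medium libraries. Genes named in the text were the 9 members, FASN, the called members of each list (at most 4) or otherwise at most the 2 with the smallest p, and the 5 genes most like GULP1. GULP1-209 and the other transcript models, the uncalled fibroblast markers and the genes overlapping a member were added after their values were seen. So were TYRO3, ADGRB1, VIM, KRT8, CD47, COL3A1, COL5A2, ANKAR, CD68, TIE1 and the markers named as under 1 CPM in every library. Coordinates and coding lengths are from GENCODE release 29, in which 16 of the 20 GULP1 models have the length given in the deposited tables. Alternatives were DESeq2 1.42.0, relative log expression factors, no filter, only the groups of a contrast, the replicate number as a block, limma 3.58.1 on log2(TPM + 1), and each library left out in turn. Mouse transcripts were not analysed here, and GULP1 sequence is not reported here.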

Additional observations from a re-analysis of the deposited data

How the results depend on the processing

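The call of GULP1 after CSM was kept in all 6 other settings (log2 fold change -4.31 to -1.44, the last on log2(TPM + 1)) and in all 8 fits that left out 1 library (-4.45 to -3.76). Its fitted value in regular medium, a description, was -7.61 to -1.71 over the other settings and -10.6 to -6.77 with 1 library left out, since it rests on 2 counts. The number of members called after CSM was 2 with DESeq2, which added AXL, and the number called between media in knockdown cells was 1 without the filter on low counts; GULP1 is described, not tested, in that contrast.

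Counts over all genes moved more. In regular medium the 46 called genes became 389 without the filter, 25 with only the groups of the contrast, 338 with DESeq2 and 17 on log2(TPM + 1). After CSM the 264 became 1178, 435, 1462 and 59 under the same settings. Between media in control cells the 0 became 62 without the filter and 6 with DESeq2, in knockdown cells 175 and 52, and for the interaction 121 and 7. With 1 library left out, 11 to 35 genes were called in regular medium and 86 to 175 after CSM. DESeq2 called 124 of 338 and 755 of 1462 genes as higher, against 6 of 46 and 97 of 264. The fit with only the groups of a contrast could not be made for the interaction, which uses all 4.

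The replicate numbers do not pair the libraries: over 19 pairs with the same number the deviations from the group means correlated at -0.384 to 0.328, with 5 above 0.1. With the number as a block, 17 genes were called in regular medium and 59 after CSM, and GULP1 was among the latter. PROS1 then had adjusted p = 0.154 in regular medium and FAM171B 0.0673, POSTN 0.136 and THY1 0.129 after CSM, by edgeR's quasi-likelihood test.

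On log2(TPM + 1) after CSM, where all genes had a median of 0.39, the sign reversed for GAS6 (0.37), AXL (0.029), MERTK (0.49), LRP1 (0.26) and ELMO2 (0.61), and in regular medium, where that median was -0.14, for MERTK (-0.18) and DOCK1 (-0.29). With only the groups of the contrast ELMO2 in regular medium was 0.0011. None of these passed the threshold. With 1 library left out, values that changed sign ran from -0.070 to 0.11 for MERTK, -0.39 to 0.49 for ELMO1, -0.24 to 0.085 for ELMO2 and -0.076 to 0.071 for DOCK1 in regular medium, and from -0.30 to 0.044 for MERTK, -0.24 to 0.068 for ELMO2 and -0.019 to 0.22 for DOCK1 after CSM. The cause was not tested.

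Depth limits GULP1 in knockdown libraries, ELMO1 and MEGF10, which hold at most 76 counts outside control GULP1. Mouse transcripts were not quantified, so host cells were not measured. Any mouse reads placed on human transcripts cannot be told apart from human reads.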
